A study of Mus musculus with 6 samples.

Results

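The genes described here are 38 genes of mitosis and the spindle, chosen by symbol from the 19309 genes of the count table, and each symbol matched a single row. They were measured by bulk RNA sequencing in M2c-polarized macrophages grown from the bone marrow of 3 mice lacking the soluble epoxide hydrolase (sEH-/-) and 3 wild-type mice, with 1 library per mouse. The sEH is encoded by Ephx2 and turns fatty acid epoxides into diols. The mice were matched for age and strain and aged 8 to 10 weeks, and the cells of both genotypes were treated in the same way. Bone marrow monocytes were kept for 7 days in M-CSF and GM-CSF, were then polarized to M1 with LPS and IFN-γ for 24 h, and received TGF-β1 for a further 48 h, by which they become M2c macrophages, a state linked to the resolution of inflammation. These times are those of the deposited description. The methods of the study also give 7 days, but a shorter LPS and IFN-γ step and TGF-β1 for 24 or 48 h. Every library was made from cells at the end of this protocol, and the comparison asks how the mitotic transcripts of such cells differ between the genotypes.

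Transcripts of mitotic genes build up in G2 and mitosis, when a complex of B-MYB and the MuvB core, followed by FOXM1, turns their promoters on. In resting cells the DREAM complex, which shares the MuvB core, keeps the same promoters off, and MuvB contacts them through a short element called the CHR, often found beside CCAAT boxes that bind NF-Y. Macrophages leave the cell cycle as they mature, but bone marrow cultures in M-CSF can keep some cells that still divide. In RNA from whole cultures, fewer dividing cells and less mitotic RNA per cell cannot be told apart.

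The RefSeq table of promoters for the genome build GRCm38.p6 (mm10) held 34 promoters of 32 of the 38 genes, each from 250 bases before to 50 bases after the transcription start. Ccna2, Foxm1, Aurkb, Incenp, Tpx2 and Kif20a had no match. The 250 bases before the start are printed for Top2a, Mki67, Cdk1, Bub1b and Ccnf. These are the 5 genes with the highest mean level among those holding both motifs there. The same bases are printed for Cenpa and Spc25, the pair that met the thresholds for a genotype difference given below. Capitals mark CCAAT boxes (CCAAT or, on the other strand, ATTGG) and CHR elements (TTTGAA or TTCGAA, with TTCAAA for the other strand), and every sequence reads 5′ to 3′ along its gene.
Cenpa (chr5:30666636-30666885, plus strand): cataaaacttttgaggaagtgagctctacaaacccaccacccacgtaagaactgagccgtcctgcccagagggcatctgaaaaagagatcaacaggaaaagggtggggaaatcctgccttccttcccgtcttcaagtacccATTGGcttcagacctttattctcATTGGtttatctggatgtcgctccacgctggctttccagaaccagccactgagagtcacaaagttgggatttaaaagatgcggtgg
Spc25 (chr2:69206214-69206463, minus strand): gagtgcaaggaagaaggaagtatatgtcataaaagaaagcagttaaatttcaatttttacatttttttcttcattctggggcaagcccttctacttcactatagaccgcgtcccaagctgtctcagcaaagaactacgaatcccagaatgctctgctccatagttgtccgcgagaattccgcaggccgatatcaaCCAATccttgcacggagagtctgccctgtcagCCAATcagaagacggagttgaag
Top2a (chr11:99024190-99024439, minus strand): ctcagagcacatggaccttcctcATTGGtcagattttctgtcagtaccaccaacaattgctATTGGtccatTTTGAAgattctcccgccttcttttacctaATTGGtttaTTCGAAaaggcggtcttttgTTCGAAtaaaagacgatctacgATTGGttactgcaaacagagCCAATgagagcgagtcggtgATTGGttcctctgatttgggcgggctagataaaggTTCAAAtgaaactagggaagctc
Mki67 (chr7:135716380-135716629, minus strand): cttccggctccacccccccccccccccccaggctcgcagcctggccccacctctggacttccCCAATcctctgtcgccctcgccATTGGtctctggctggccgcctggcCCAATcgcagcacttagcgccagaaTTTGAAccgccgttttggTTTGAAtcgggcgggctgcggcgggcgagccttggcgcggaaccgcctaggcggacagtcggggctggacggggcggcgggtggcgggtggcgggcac
Cdk1 (chr10:69352913-69353162, minus strand): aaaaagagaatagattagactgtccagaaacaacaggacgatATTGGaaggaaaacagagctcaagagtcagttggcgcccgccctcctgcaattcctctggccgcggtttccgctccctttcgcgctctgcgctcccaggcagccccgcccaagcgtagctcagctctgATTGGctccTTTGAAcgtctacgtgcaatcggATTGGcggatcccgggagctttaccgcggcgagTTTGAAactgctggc
Bub1b (chr2:118597961-118598210, plus strand): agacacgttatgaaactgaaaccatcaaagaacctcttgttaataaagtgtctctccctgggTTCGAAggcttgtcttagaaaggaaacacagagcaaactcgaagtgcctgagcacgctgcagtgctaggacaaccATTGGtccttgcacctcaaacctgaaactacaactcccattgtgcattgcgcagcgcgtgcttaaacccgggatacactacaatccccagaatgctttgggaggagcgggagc
Ccnf (chr17:24251410-24251659, minus strand): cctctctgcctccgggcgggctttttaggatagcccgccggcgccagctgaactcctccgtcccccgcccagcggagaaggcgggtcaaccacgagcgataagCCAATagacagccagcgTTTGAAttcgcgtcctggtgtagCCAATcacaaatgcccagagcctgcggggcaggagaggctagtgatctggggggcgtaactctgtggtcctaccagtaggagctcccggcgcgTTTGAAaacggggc
CCAAT boxes were present in all 7 of these windows, from 1 in Bub1b to 6 in Top2a. Cenpa and Spc25 held no CHR in the printed bases, but each had a single CHR just after its start, at position 17 for Cenpa and position 25 for Spc25. Over all 34 promoters, 26 (76.5%) held a CCAAT box and 27 (79.4%) a CHR within the 300 bases, against 37.4% and 19.2% of the 32851 promoters in the table. Both motifs were found in 24 (70.6%), against 7.52% of all promoters, and they shared bases in 1 promoter, that of Cdca8. For 13 genes the only CHR lay in the 50 bases after the start, so that within the 250 bases before it the share with a CHR was 38.2%, against 17.1% of all promoters. A match of letters is a description of the sequence and not a measured binding site.

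**Figure D1:**
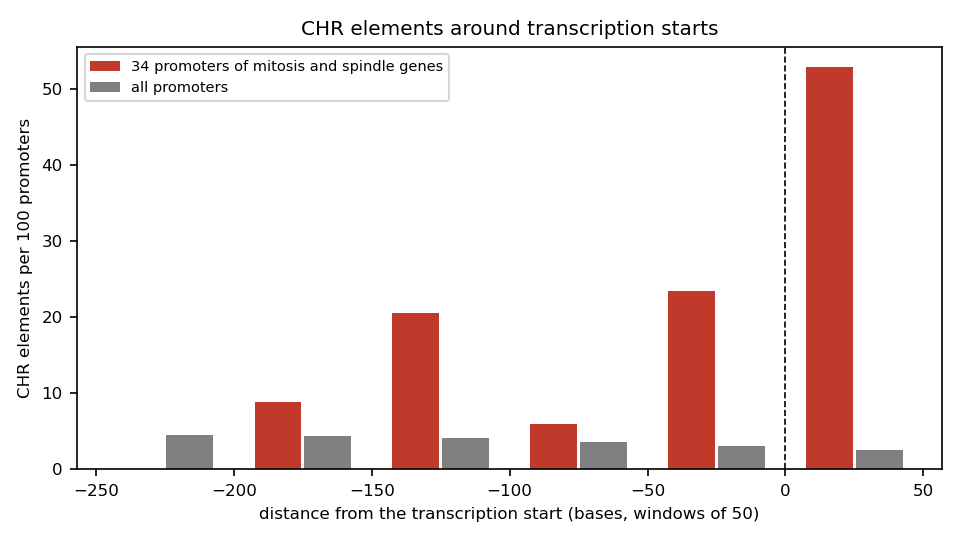
CHR elements per 100 promoters (y axis) in windows of 50 bases by distance from the transcription start (x axis), for the 34 promoters of mitosis and spindle genes (red) and all 32851 promoters (grey). The tallest red bar, 52.9 per 100, is the window just after the start, where all promoters have 2.52 per 100.

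Levels are given as CPM, the counts of a library scaled to a common size after TMM normalization, and a difference is the log2 fold change of sEH-/- over wild-type from edgeR. A gene was tested when its mean count over the 6 libraries was above 5, and was called when its Benjamini-Hochberg adjusted p over all 13785 tested genes was below 0.05 and it differed by more than 1.5-fold. Library totals were 4400197 to 6096440 counts. Ephx2 itself had 1 to 4 counts in the sEH-/- libraries and 26 to 57 in the wild-type libraries, as the labels say. Each of 10 macrophage markers was detected in every library and together they made up 1920 to 2700 CPM, with Csf1r at 391 to 546 CPM and Adgre1, the F4/80 antigen, at 330 to 468 CPM. All 10 had estimates above 0 in sEH-/-, with a median of 0.21, and their mean sum was 2510 ± 294 CPM in sEH-/- against 2120 ± 265 CPM for wild-type (SD, n = 3). Per library, markers of lymphocytes (1 of 8 listed had a row) summed to at most 0.807 CPM, of erythroid cells (1 of 6) to at most 1.97 CPM and of myeloid progenitors (4 of 8) to at most 6.65 CPM. Libraries of the same genotype differed by more than sampling noise, with a chi-square per degree of freedom of 2.29 to 4.99 in each pair.

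The summed level of the 38 genes was 490, 524 and 524 CPM in the 3 sEH-/- libraries and 542, 634 and 580 CPM in the 3 wild-type libraries, and the genotypes did not overlap. Without Cenpa and Spc25, the sums were 449, 492 and 469 CPM in sEH-/- and 469, 534 and 494 CPM in wild-type, and the genotypes overlapped. That pair was left out because it was called lower in these same libraries, which by itself brings the sums together. The overlap therefore does not show that the other genes were unchanged. Per kilobase of the longest transcript, the highest mean level was that of Incenp (24.3 CPM per kb), followed by Spc25 (12.1), Cenpa (11), Tpx2 (8.41), Bub1b (8.12) and Cdk1 (7.24). The lowest was that of Cenpf, at 0.0597 CPM per kb. With the union of all exons as the length, Incenp still led with 19.4 CPM per kb, followed by Tpx2 at 7.85, Cenpa at 7.16, Spc25 at 7.08 and Bub1b at 6.97, so the order below Incenp depends on the length used. By the longest transcript, Cenpa (7.08 CPM per kb) was near Tpx2 (7.77) and Bub1b (7.25) in sEH-/-, with gaps smaller than its SD of 2.46. In wild-type Cenpa lay above them (15.0 against 9.06 and 8.99). Incenp stood above the other genes by more than the spread between libraries, while Spc25 and Cenpa did not differ beyond it, at 8.56 ± 1.73 and 7.08 ± 2.46 CPM per kb in sEH-/- and 15.6 ± 1.41 and 15 ± 2.91 CPM per kb in wild-type (SD, n = 3).

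**Figure D2:**
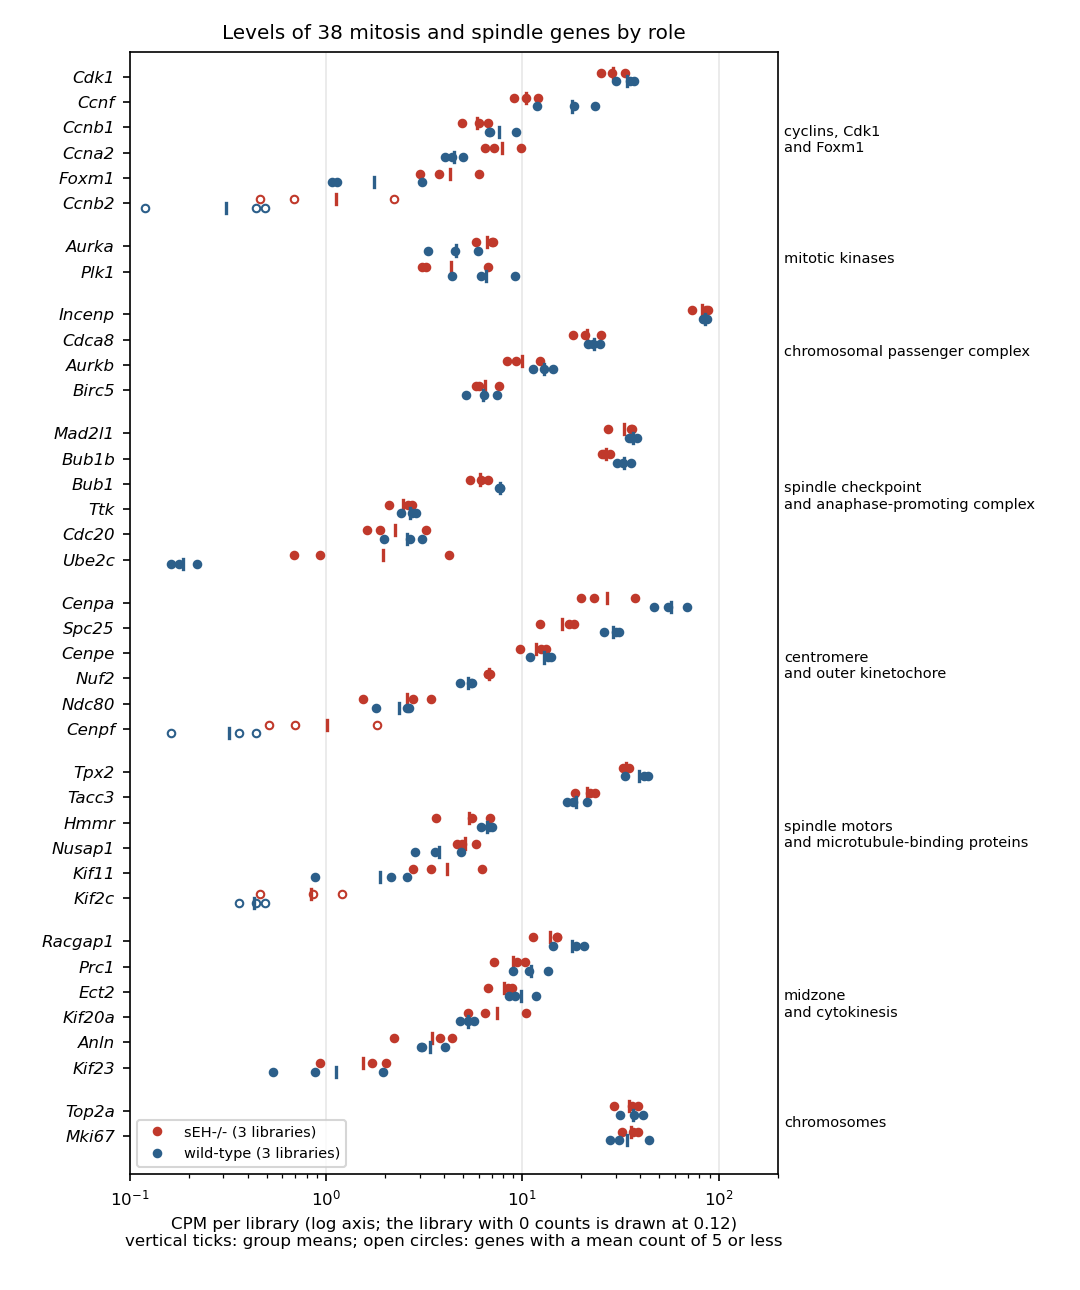
CPM in each library (x axis, log scale) of the 38 genes, grouped by role, for sEH-/- (red) and wild-type (blue), with group means as vertical ticks and open circles for the 3 genes that were not tested. Incenp lies near 80 CPM in all libraries, Cenpa and Spc25 show separate red and blue points, and Ube2c, Ccnb2 and Cenpf lie at the low end with their highest value in a single sEH-/- library.

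Of the 38 genes, 35 passed the filter on low counts, and Ccnb2, Cenpf and Kif2c did not. None of the 35 was called higher in sEH-/- by edgeR, DESeq2 or limma-voom, and 2 were called lower by each, Cenpa and Spc25 (5.71%), where 2.61% of all tested genes were called, 1.51% higher and 1.1% lower. A count of 2 is too small to set the share apart from that background. The difference was above 0 for 14 genes and below 0 for 21, with a median of -0.11, against a median of -0.00092 over all tested genes, and it ranged from -1.11 for Cenpa to 3.23 for Ube2c. The genotypes did not overlap for 9 genes, 4 of them higher and 5 lower in sEH-/- (25.7%), close to the 26.3% of all tested genes (11.8% higher and 14.5% lower). An unadjusted p below 0.05 was found for 8 genes, 4 in each direction, where 23.4% of all tested genes had one. For 11 of the 35 genes the 95% confidence interval of the difference lay within 1.5-fold in either direction, while for the other 24, Cenpa and Spc25 among them, it reached a 1.5-fold difference or more.

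**Figure D3:**
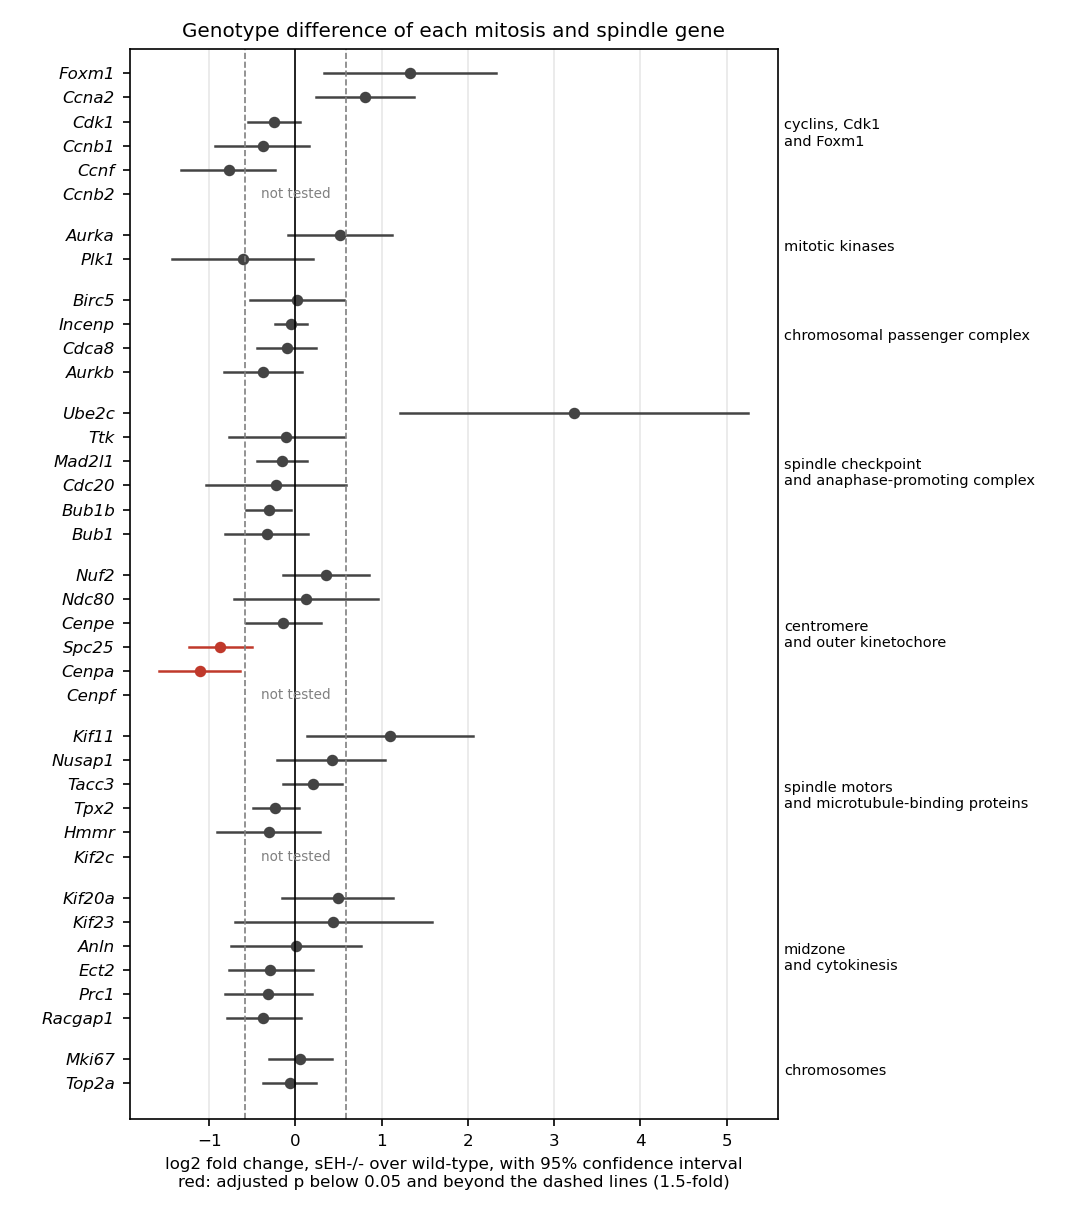
Log2 fold change of sEH-/- over wild-type (x axis) with its 95% confidence interval for each tested gene, grouped by role, where dashed lines mark 1.5-fold and red marks the called genes. Cenpa and Spc25 are the only red points, 11 intervals lie within the dashed lines, and the interval of Ube2c is the widest.

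The centromere and the outer kinetochore held both called genes. Cenpa (ENSMUSG00000029177, chr5:30666777-30674830 in mm10, plus strand) encodes the histone H3 variant that marks centromeres and is the base on which kinetochores are built. Its level was 23.3, 20.0 and 37.6 CPM in the sEH-/- libraries and 46.8, 68.8 and 55.4 CPM in the wild-type libraries. Every sEH-/- library was below every wild-type library, with the third sEH-/- library nearest to the wild-type range. The sEH-/- mean was 26.9 ± 9.35 CPM and the wild-type mean 57.0 ± 11.1 CPM (SD, n = 3 each), a log2 fold change of -1.11 ± 0.21 (SE), and the edgeR adjusted p was 0.027. Spc25 (ENSMUSG00000005233, chr2:69193895-69206194, minus strand) encodes a subunit of the NDC80 complex, which holds spindle microtubules at the kinetochore. It was at 18.3, 12.3 and 17.4 CPM in sEH-/- and at 26.2, 31.2 and 30.1 CPM in wild-type. Again the genotypes were apart, and the second sEH-/- library was the lowest. The means of 16 ± 3.23 and 29.1 ± 2.63 CPM gave a log2 fold change of -0.87 ± 0.17 and an edgeR adjusted p of 0.027. Both genes stayed below 0 in every alternative fit and kept their call in 11 of 15. When sEH-/- replicate 2, or replicate 2 or 3 of the wild-type, was left out in turn, the edgeR adjusted p rose to 0.081, 0.14 and 0.13 for Cenpa and to 0.068, 0.15 and 0.14 for Spc25, and with the library total as a covariate to 0.059 and 0.051.

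The partners of these genes gave mixed values. The other subunits of the NDC80 complex are encoded by Ndc80 and Nuf2, among the 38 genes, and by Spc24, which with the Cenpa partners below was chosen after its values were seen. Nuf2 was at 6.67, 6.86 and 6.72 CPM in sEH-/- and at 5.50, 5.52 and 4.84 CPM in wild-type, so that the genotypes did not overlap in the direction opposite to Spc25, with a log2 fold change of 0.35 (95% interval -0.14 to 0.85, edgeR adjusted p = 0.38). Ndc80 differed by 0.12 (-0.71 to 0.96) and Spc24 by 0.51 (-0.55 to 1.57), intervals that hold a 1.5-fold change in both directions for Ndc80 and an increase for Spc24. Of the factors that place CENP-A at centromeres, Hjurp, its chaperone, differed by 0.21 (-0.01 to 0.44) and Mis18a by 0.11 (-0.19 to 0.40), both within 1.5-fold. Oip5, which encodes MIS18β, was at 3.42, 4.04 and 3.71 CPM in sEH-/- and 7.47, 11.4 and 5.92 CPM in wild-type, a log2 fold change of -1.16 ± 0.30 with an edgeR adjusted p of 0.057. With no filter on low counts Oip5 was called, at -1.16 with an edgeR adjusted p of 0.037. Cenpe, the kinetochore motor that brings chromosomes to the spindle equator, differed by -0.14 (-0.57 to 0.30). Cenpf, a large kinetochore protein, had 3, 9 and 3 counts in sEH-/- and 2, 1 and 2 counts in wild-type and was not tested.

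**Figure D4:**
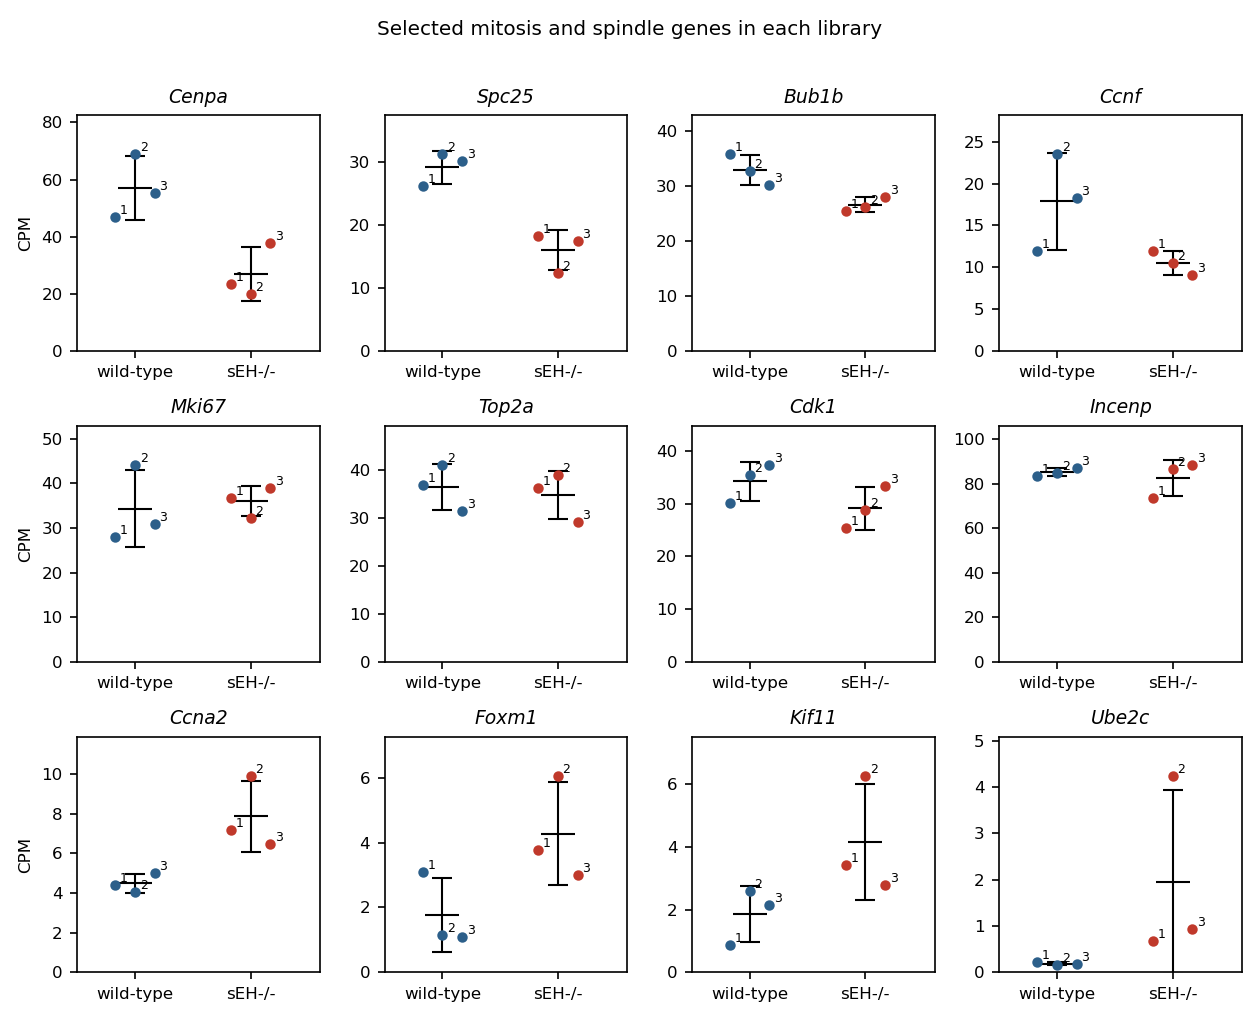
CPM in each library (y axis, from 0) for 12 of the genes, with replicate numbers beside the points and the mean ± SD (n = 3) as black bars, for wild-type (blue) and sEH-/- (red). Cenpa, Spc25 and Bub1b are apart and lower in sEH-/-, Ccna2, Kif11 and Ube2c are apart and higher, and Mki67, Top2a, Cdk1, Incenp, Ccnf and Foxm1 overlap or touch.

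The genes used most often to mark dividing cells had small differences with narrow intervals. Mki67, whose product coats mitotic chromosomes and is the antigen of proliferation stains, was at 36.8, 32.3 and 39.0 CPM in sEH-/- and 27.9, 44.1 and 31.0 CPM in wild-type. Its log2 fold change was 0.055 with a 95% interval of -0.31 to 0.42 (edgeR adjusted p = 0.88). Top2a, the topoisomerase that untangles sister chromatids, was at 36.3, 39.1 and 29.2 CPM in sEH-/- and 36.9, 41.1 and 31.5 CPM in wild-type. For Top2a the value was -0.062 with an interval of -0.37 to 0.24 (edgeR adjusted p = 0.83). For Top2a the libraries of each genotype lay among those of the other, and for Mki67 all sEH-/- libraries lay within the wild-type range. The intervals of both genes leave out a change of 1.5-fold in either direction.

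Cyclins, Cdk1 and Foxm1 had estimates on both sides of 0 and none of the 5 tested was called. Cdk1, the kinase that starts mitosis, was at 25.3, 28.7 and 33.4 CPM in sEH-/- and 30.1, 35.4 and 37.3 CPM in wild-type, a log2 fold change of -0.25 (-0.55 to 0.05, edgeR adjusted p = 0.31). Ccnb1, its main mitotic cyclin, was at 4.96, 6.05 and 6.72 CPM against 6.82, 6.81 and 9.32 CPM, with no overlap and a log2 fold change of -0.38 (-0.93 to 0.16, edgeR adjusted p = 0.39). Ccna2, the cyclin of S phase and G2, went the other way. It was at 7.19, 9.89 and 6.49 CPM in sEH-/- and 4.4, 4.06 and 5.02 CPM in wild-type, with no overlap, a log2 fold change of 0.81 ± 0.26 and an edgeR adjusted p of 0.094. Ccnf, which directs an SCF ubiquitin ligase in G2, was at 12, 10.5 and 9.04 CPM in sEH-/- and 11.9, 23.5 and 18.3 CPM in wild-type. The first library of each genotype was level for Ccnf, the other wild-type libraries were higher, and the log2 fold change of -0.77 ± 0.25 had an edgeR adjusted p of 0.094. Foxm1, the transcription factor of the mitotic program, was at 3.76, 6.05 and 3.01 CPM in sEH-/- and 3.08, 1.14 and 1.08 CPM in wild-type. Its libraries overlapped by the margin between the third sEH-/- and the first wild-type library, with a log2 fold change of 1.33 ± 0.45 and an edgeR adjusted p of 0.11. Without wild-type replicate 1, Ccnf (-0.98, edgeR adjusted p = 0.025) and Foxm1 (1.93, edgeR adjusted p = 0.036) were called. Neither was called in the other 14 alternative fits, and leaving out that library raised the calls over all tested genes from 360 to 625.

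The mitotic kinases had wide intervals. Aurka, the kinase of centrosomes and spindle poles, was at 7.01, 7.06 and 5.80 CPM in sEH-/- and 3.30, 4.54 and 5.92 CPM in wild-type, a log2 fold change of 0.52 (-0.08 to 1.12, edgeR adjusted p = 0.28). Plk1, which acts from mitotic entry to cytokinesis, was at 3.08, 6.66 and 3.25 CPM in sEH-/- and 4.4, 6.17 and 9.14 CPM in wild-type, a log2 fold change of -0.61 (-1.43 to 0.21, edgeR adjusted p = 0.35). In both genes the genotypes overlapped. Either interval reaches a change of 1.5-fold or more in the direction of its own estimate.

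The chromosomal passenger complex, which corrects faulty attachments and later acts at the midzone, had 3 of 4 genes with intervals within 1.5-fold. Incenp, its scaffold, had the highest level per kilobase and was at 73.4, 86.4 and 88.3 CPM in sEH-/- and 83.5, 84.7 and 87.1 CPM in wild-type. Its log2 fold change was -0.046 with an interval of -0.23 to 0.14 (edgeR adjusted p = 0.79). Cdca8 (borealin) was at 25.3, 18.2 and 20.9 CPM in sEH-/- and 22.9, 21.6 and 24.9 CPM in wild-type, a log2 fold change of -0.10 (-0.44 to 0.24, edgeR adjusted p = 0.75). Birc5 (survivin), which binds borealin and brings the complex to centromeres, differed by 0.022 (-0.53 to 0.57). Aurkb, the kinase of the complex, was at 8.38, 12.3 and 9.28 CPM in sEH-/- and 11.4, 14.3 and 12.9 CPM in wild-type, with a log2 fold change of -0.37 (-0.83 to 0.08, edgeR adjusted p = 0.31). The interval of Aurkb was the one that reached 1.5-fold.

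Among genes of the spindle checkpoint and the anaphase-promoting complex, 5 of 6 lay below 0 and none was called. Bub1b, which encodes the checkpoint protein BUBR1, was at 25.5, 26.2 and 28.1 CPM in sEH-/- and 35.8, 32.8 and 30.3 CPM in wild-type. The genotypes were apart by a small margin, with a log2 fold change of -0.31 (-0.57 to -0.05, edgeR adjusted p = 0.14) that stays within 1.5-fold. Bub1, the checkpoint kinase, was at 6.16, 5.45 and 6.72 CPM in sEH-/- and 7.69, 7.63 and 7.71 CPM in wild-type, also apart, with a log2 fold change of -0.33 (-0.81 to 0.15, edgeR adjusted p = 0.40). Mad2l1, the checkpoint protein that holds back CDC20, was at 27.2, 35.7 and 36.2 CPM in sEH-/- and 35.2, 38.5 and 35.9 CPM in wild-type, a log2 fold change of -0.15 (-0.44 to 0.13, edgeR adjusted p = 0.52). The first sEH-/- library was the low value of Mad2l1. Ttk, the kinase that starts the checkpoint signal, differed by -0.11 (-0.77 to 0.56) and Cdc20, the activator of the anaphase-promoting complex, by -0.22 (-1.03 to 0.59).

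Ube2c, the ubiquitin-conjugating enzyme of the same complex, had the highest fold change of the 35 genes on few counts. It had 4, 21 and 4 counts in sEH-/- and 1 count in each wild-type library. The second sEH-/- library held most of the counts and carried the gene past the filter, since without that library its mean count was too low for a test. The log2 fold change was 3.23 ± 0.91 with an edgeR adjusted p of 0.068. As a ratio of normalized counts, sEH-/- was 10.4 times wild-type (95% counting interval 3.23 to 53.4), and 4.28 times (1.03 to 25) without sEH-/- replicate 2. Without sEH-/- replicate 1 Ube2c was called (3.69, edgeR adjusted p = 0.034), but 10 of its 12 alternative fits did not call it, and DESeq2 gave it no adjusted p. Ube2c was tested only through the genotype in which it was high, so such a call is no support for a change.

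The 3 genes under the filter showed the same library at the top. Ccnb2, another B-type cyclin, had 4, 11 and 2 counts in sEH-/- and 2, 3 and 0 counts in wild-type, and Kif2c, the kinesin that takes microtubules apart at centromeres, had 5, 6 and 2 counts in sEH-/- and 2, 3 and 2 counts in wild-type. The ratio of sEH-/- to wild-type was 3.66 (95% counting interval 1.30 to 12.7) for Ccnb2, 3.23 (1.12 to 11.4) for Cenpf and 2.0 (0.742 to 5.93) for Kif2c. Without sEH-/- replicate 2 the ratios were 1.92 (0.489 to 7.97), 1.92 (0.489 to 7.97) and 1.6 (0.480 to 5.36), and every one of these intervals held 1. The counting intervals do not cover the spread between mice.

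Spindle motors and microtubule-binding proteins lay on both sides of 0. Tpx2, which activates Aurora A on spindle microtubules, was at 35.2, 32.7 and 33.9 CPM in sEH-/- and 33.2, 43.8 and 41.6 CPM in wild-type, a log2 fold change of -0.23 (-0.49 to 0.04, edgeR adjusted p = 0.29). Tacc3, which links microtubules within spindle fibres, was at 22.2, 23.4 and 18.6 CPM in sEH-/- and 21.3, 17 and 18.1 CPM in wild-type, a log2 fold change of 0.20 (-0.14 to 0.54, edgeR adjusted p = 0.49). Both intervals stay within 1.5-fold. Kif11, the kinesin that pushes spindle poles apart, was at 3.42, 6.26 and 2.78 CPM in sEH-/- and 0.879, 2.60 and 2.15 CPM in wild-type. The genotypes did not overlap for Kif11, but the lowest sEH-/- library was near the highest wild-type library, and the log2 fold change of 1.10 ± 0.43 had an edgeR adjusted p of 0.16. Nusap1, which bundles spindle microtubules, differed by 0.42 (-0.21 to 1.04) and Hmmr, the hyaluronan-mediated motility receptor found at spindle poles, by -0.31 (-0.91 to 0.29).

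None of the 6 midzone and cytokinesis genes was called or had genotypes apart. Racgap1, of the centralspindlin complex that marks the cleavage plane, was at 15.1, 11.3 and 15.1 CPM in sEH-/- and 20.7, 18.7 and 14.3 CPM in wild-type, a log2 fold change of -0.37 (-0.79 to 0.06, edgeR adjusted p = 0.29). Prc1, which cross-links midzone microtubules, was at 9.41, 10.3 and 7.19 CPM in sEH-/- and 9.01, 13.6 and 10.8 CPM in wild-type, a log2 fold change of -0.32 (-0.82 to 0.19, edgeR adjusted p = 0.45). Ect2, the exchange factor that activates RhoA at the equator, differed by -0.29 (-0.77 to 0.20) and Anln, the scaffold of the contractile ring, by 0.0032 (-0.75 to 0.76). Kif20a, a midzone kinesin, had an estimate of 0.49 (-0.16 to 1.13), with 10.5 CPM in the second sEH-/- library and 4.84 to 6.49 CPM in the other 5 libraries. Kif23, the kinesin of centralspindlin, had 3 to 12 counts per library and a difference of 0.44 (-0.70 to 1.58). All 6 intervals reached 1.5-fold.

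A pair of libraries held the highest value of most genes. Of the 35 tested genes, 11 (31.4%) were highest in sEH-/- replicate 2, where 22.1% of all tested genes were, and 12 (34.3%) in wild-type replicate 2, where 21.9% of all were, against 1 and 4 in the other sEH-/- and 2 and 5 in the other wild-type libraries. The genes highest in sEH-/- replicate 2 included Ccna2, Foxm1, Kif11, Ube2c and Kif20a, and those highest in wild-type replicate 2 included Cenpa, Spc25, Ccnf and Mki67. Relative to the wild-type mean, the median over the genes was -0.15, -0.030 and -0.089 on the log2 scale for sEH-/- and -0.13, 0.10 and -0.019 for wild-type, so wild-type replicate 1 lay within the sEH-/- range. Wild-type replicate 2 was also the library with the highest sum over 6 of 7 listed stromal markers, 63.1 CPM against 7.04 and 24.6 CPM in the other wild-type libraries and 11.4 to 20.9 CPM in sEH-/-, and with the lowest value of all 10 macrophage markers. Neutrophil markers (6 of 8 listed had a row) summed to 28.1 to 31.5 CPM in sEH-/- and 17.6 to 21.0 CPM in wild-type, of which S100a8 was the main part, while S100a9 was at 0 in 2 libraries. Dendritic cell markers (5 of 6) summed to 27.0 to 57.7 CPM in sEH-/- and 42.2 to 58.9 CPM in wild-type, with Cd209a at 0 in all. The part of these cells, and of the level of macrophage markers, in the values of the mitotic genes was not tested.

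A further list of 83 mitosis genes, of which 73 were tested, gave 1 gene higher and 2 lower in sEH-/- (4.11%, against 2.61% of all tested genes), with 33 differences above and 40 below 0 and a median of -0.031. Gtse1, a microtubule-binding protein of G2 and mitosis, was at 21.6, 11.1 and 13.9 CPM in sEH-/- and 29.5, 54.4 and 45.4 CPM in wild-type (log2 fold change -1.46 ± 0.26, edgeR adjusted p = 0.022). Psrc1, a spindle protein induced by p53, was at 38.8, 24.6 and 63.5 CPM in sEH-/- and 91.9, 119 and 116 CPM in wild-type (-1.39 ± 0.24, edgeR adjusted p = 0.022). Kntc1, a subunit of the RZZ complex at kinetochores, was called higher on few counts, with 17, 26 and 10 counts in sEH-/- and 1, 3 and 7 counts in wild-type (2.34 ± 0.54, edgeR adjusted p = 0.044). The wild-type counts alone were under the filter, so Kntc1 was tested only through the genotype in which it was high, and its call is no support for a change of the list. The 3 most abundant genes of the list were not called. Their differences were -0.12 for Ckap5, a microtubule polymerase, 0.062 for Ncaph2, of condensin II, and -0.12 for Mis12, of the kinetochore.

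Genes of S phase had more estimates above than below 0. Of 41 listed, 40 were tested, 28 of them above and 12 below 0, with a median of 0.12, and 2 were called, both higher (5.0%, against 2.61% of all tested genes and 1.51% higher). Over all tested genes 6867 were above and 6918 below 0. Both called genes encode subunits of the MCM helicase that opens DNA for replication. Mcm5 was at 24.8, 30.7 and 15.1 CPM in sEH-/- and 10.8, 6.33 and 6.27 CPM in wild-type (1.62 ± 0.29, edgeR adjusted p = 0.022), and Mcm7 at 18.5, 32.7 and 16.5 CPM in sEH-/- and 11.2, 9.25 and 10.2 CPM in wild-type (1.15 ± 0.26, edgeR adjusted p = 0.041). Further subunits, Mcm6 (0.25, 0.04 to 0.45) and Mcm3 (0.14, -0.04 to 0.32), and the transcription factor E2f1 (0.061, -0.11 to 0.23) stayed within 1.5-fold. The second sEH-/- library was the highest for 21 of the 40 genes (52.5%). Ccne1, cyclin E1, passed the test but not the threshold of size, at -0.48 with an edgeR adjusted p of 0.046.

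Of 33 regulators and inhibitors of G1, 13 were above and 20 below 0, with a median of -0.071, and 3 were called, all lower in sEH-/- (9.09%, against 2.61% of all tested genes and 1.1% lower). Cdkn1c, the Cdk inhibitor p57, was at 18.5, 9.48 and 15.1 CPM in sEH-/- and 26.2, 49.2 and 44.1 CPM in wild-type (-1.47 ± 0.26, edgeR adjusted p = 0.022). Cdkn2c, the Cdk4 and Cdk6 inhibitor p18, was at 6.16, 7.67 and 9.97 CPM in sEH-/- and 16.3, 19.8 and 16.3 CPM in wild-type (-1.16 ± 0.21, edgeR adjusted p = 0.024). Gadd45b, a stress response gene, was at 49.4, 37.1 and 39.7 CPM in sEH-/- and 57.8, 70.3 and 71.7 CPM in wild-type (-0.66 ± 0.12, edgeR adjusted p = 0.027). Cdkn1a, the p53 target p21, had an estimate of -0.28 (-0.49 to -0.06, edgeR adjusted p = 0.12) and Rb1, the retinoblastoma protein, of -0.45 (-0.70 to -0.19, edgeR adjusted p = 0.055). Trp53 differed by 0.092 (-0.08 to 0.27) and Mybl2, which encodes B-MYB, by 0.036 (-0.57 to 0.64). Of the 6 G1 cyclins and kinases in the list, 3 were above and 3 below 0, with a median of -0.00081, and 0 were called. Among them, Cdk6 lay between -0.14 and -0.015 in the fits without single libraries.

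Each of these 8 calls outside the 38 genes was lost without wild-type replicate 2, with an edgeR adjusted p of 0.10 to 0.21, and without wild-type replicate 3, at 0.12 to 0.16. Without sEH-/- replicate 2 all but that of Psrc1 were lost. Kntc1 and Mcm7 also lost their calls with the library total as a covariate, at 0.074 and 0.078. The differences changed little, for example from -1.47 to -1.29 and -1.40 for Cdkn1c, from 1.62 to 1.49 and 1.49 for Mcm5, and from -1.39 to -1.31 and -1.34 for Psrc1 without wild-type replicates 2 and 3, while Kntc1 went from 2.34 to 2.13 and 3.16.

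**Figure D5:**
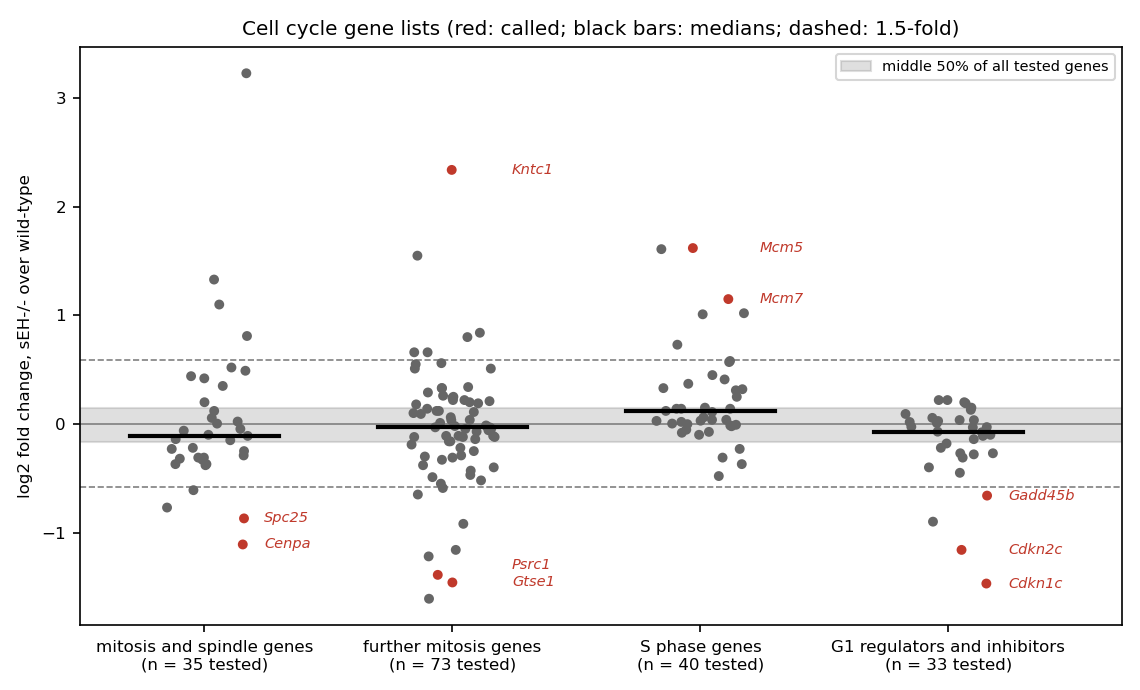
Log2 fold change of sEH-/- over wild-type (y axis) for the tested genes of 4 cell cycle lists, with medians as black bars, called genes in red with their names, and the middle of all tested genes as a grey band. Medians were -0.11, -0.031, 0.12 and -0.071, and called genes lie below 0 except Kntc1, Mcm5 and Mcm7.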

How the data were processed

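Total RNA of M2c macrophages from 6 mice was made into stranded libraries and sequenced. The authors trimmed reads with Trimmomatic 0.39 and aligned them with STAR 2.7.7a to mm10. They removed duplicates with Picard 2.21.7 and counted reads over exons, by strand, with featureCounts 1.6.5. These versions are those of the submitters' processing notes. The methods give the same steps, with other versions of STAR, Picard and featureCounts. The deposited values are raw counts per gene, and they were not normalized. For the libraries the methods name a stranded total RNA kit, and the labels differ on the kit. Removing duplicates limits the counts of abundant genes, but no mitosis and spindle gene had more than 0.121 counts per exonic base. Of the 19309 genes, 282 had no counts.

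Counts were analysed with edgeR 4.0.16 (TMM, glmQLFit and glmQLFTest, no covariates) in R 4.3.3. The genes with a mean count above 5 (13785, with 99.8% of counts) were tested, and p-values were adjusted over all of them by the Benjamini-Hochberg method. Standard errors were derived from the quasi-likelihood F statistic, and 95% intervals use the fit's degrees of freedom. Only 3 libraries per genotype limit the precision: an exact permutation test of 3 against 3 cannot go below p = 0.10. Counting intervals of ratios are exact binomial and cover counting error only. Exonic lengths were from GENCODE M21. Of the 15 alternative fits, DESeq2 1.42.0 and limma-voom 3.58.1 were 2. Scripts were tested on simulated counts.

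The 38 genes, the other lists and their roles were chosen with earlier results of these data known. All 38 are reported: in full those called, the 2 most abundant of each role, and Mki67, Top2a, Cdk1, Ccnb1, Foxm1, Aurkb and Plk1. Ccna2, Nuf2, Bub1, Kif11 and Ube2c are also given in full because their genotypes did not overlap, a choice made after the values were seen. Of the other lists, the called genes, at most the 3 most abundant, Cdkn1a, Trp53 and Mybl2 are named. Ccne1, Oip5, Hjurp, Mis18a and Spc24, and the printing of the Cenpa and Spc25 promoters, were chosen after the values were seen.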

Additional observations from a re-analysis of the deposited data

How the results depend on the processing

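Of 521 refits of single mitosis and spindle genes, 490 kept the sign and the call. Signs turned in 19, over 8 genes whose estimates were at most 0.12 in size. Over the fits without single libraries, the genes that turned ranged from -0.10 to 0.16 (Birc5), -0.25 to 0.025 (Cdca8), -0.086 to 0.037 (Incenp), -0.18 to 0.0036 (Ttk), -0.14 to 0.42 (Ndc80), -0.18 to 0.26 (Anln), -0.067 to 0.28 (Mki67) and -0.16 to 0.052 (Top2a), and Mybl2 from -0.056 to 0.13. Ttk also turned with thinned counts (0.022), and Anln with limma-voom (-0.054), without TMM factors (-0.019) and with the library total as a covariate (-0.075). The median difference stayed between -0.17 and -0.072.

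The count of calls depended on single libraries. Over all tested genes it was 360, and 6 to 625 without single libraries (96 without sEH-/- replicate 2, 25 without wild-type replicate 2, 6 without wild-type replicate 3), 171 with the library total as a covariate, 234 with a replicate block, 514 with no filter on low counts and 553 with no fold change threshold. Among the mitosis and spindle genes the count was 2, and 0 to 4 without single libraries (0 without any of those 3, and 4 without wild-type replicate 1) and 0 with the covariate. In these 4 fits with 0 calls, all by edgeR, 5 to 8 of the genes had an unadjusted p below 0.05. The main fit had 8, where 23.4% of all tested genes had one, so such a count is no sign of a change. The share over all tested genes was not taken in these 4 fits. DESeq2 and limma-voom on all libraries called 2 and 2. Further mitosis genes gave 3, and 6 with DESeq2, 6 with no filter, and 0 to 7 without single libraries. S phase genes gave 2, and 1 with limma-voom, the replicate block or the covariate, and 0 to 4 without single libraries. G1 regulators gave 3, and 0 to 3 without single libraries. The causes were not tested.

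Kntc1 and Mcm7 also missed the threshold with the replicate block (adjusted p = 0.057 and 0.055) and the covariate (0.074 and 0.078), Mcm7 with limma-voom (0.054) and Kntc1 without wild-type replicate 1 (0.060). With the replicate block Ube2c was called (3.24, adjusted p = 0.044) and Cenpa and Spc25 kept their calls. The numbers share no stated litter or day, and deviations of same-numbered libraries correlated at -0.08, -0.26 and -0.04, so the replicate block was not taken as a pairing. Ephx2 kept its call in all 15 fits. With so few counts, Ube2c, Ccnb2, Cenpf and Kif2c are limited by depth.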
